A study of Homo sapiens with 18 samples.

Results

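The intervals described here are stretches of genes that took a much larger share of the nuclear than of the cytoplasmic libraries of newly made RNA in cells given DMSO. They are called nuclear-retained in that sense. They number 2926, in 1799 genes, of 98665 intervals in 12755 genes, which is 2.97% of the intervals. Each value was divided by the sum of its library and multiplied by 1e+06, which is written CPM and counts T-to-C reads. The intervals were chosen by these values: an interval was taken when its mean over the 3 DMSO nuclear libraries was at least 20 CPM and at least 8 times the mean of the 3 DMSO cytoplasmic libraries plus 0.5. Of the 10677 intervals that reached 20 CPM in DMSO nuclear RNA, 27.4% met the fold and 7751 did not. CPM compares shares of libraries, not amounts of RNA, and on the ERCC scale of the deposited values the same rule would choose 463.

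The study labelled new RNA in MDA-MB-453 cells, an established line from a breast carcinoma with luminal features and androgen receptor. Cells were given DMSO, the solvent, or JQ1-VHL, called dBET in the sample titles, for 3 hours. The nucleoside 4-thiouridine (0.1 mM) was present in both groups during the last 60 minutes. Total, cytoplasmic and nuclear RNA were each taken in 3 libraries a treatment, 18 in all. The nuclear fraction is the pellet left after 1 mg/ml digitonin. Digitonin opens the plasma membrane and leaves much of the endoplasmic reticulum with the nuclei, so RNA inside the nucleus and RNA bound to that membrane cannot be told apart in the pellet. Polyadenylated RNA was sequenced as 150 bp pairs, with ERCC RNA added by RNA mass and Drosophila cells added by cell count. The labels give a batch number, 1 to 3, and do not say that libraries came from separate cultures, so the spread behind each p-value may be technical. Fewer cells and less new RNA per cell cannot be told apart.

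A primary transcript is made with its introns, which are removed while it is still on or near the gene. A transcript that keeps an intron is often held in the nucleus until the intron is spliced or the RNA is degraded, and such detained introns are common in genes for splicing factors. Messenger RNAs that encode secreted and membrane proteins go a different way: after export they are carried to ribosomes on the endoplasmic reticulum. JQ1-VHL joins the BET bromodomain ligand JQ1 to a ligand of the ubiquitin ligase subunit VHL, and leads to loss of the BET proteins, which help RNA polymerase II pass from initiation to elongation.

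The table names an interval by a gene ID and a number, and does not say what the intervals are. In this text an interval is written as the gene and its number, such as RPS3 8. In 838 of the genes with such intervals, the interval numbers ran as high as the count of gaps separating merged exons in GENCODE 29 (GRCh38), and there the intervals were placed by number. No genome sequence was used, so the intervals' own bases are given only where RefSeq (GRCh38.p14) holds a microRNA inside a placed interval. RefSeq places 158 microRNA hairpins within the 1799 genes, and 4 of them lie on the same strand inside a placed nuclear-retained interval. MIR33B (chr17:17813836-17813931, minus strand) lies in the 475-base gap of SREBF1 6, and MIR6777 (chr17:17813480-17813545, minus strand) in the 89-base gap of SREBF1 5. MIR6775 (chr16:87834592-87834660, minus strand) lies in SLC7A5 2, and MIR6739 (chr1:201863373-201863447, plus strand) in IPO9 15. The placement is an inference from these counts, and the mature sequences below belong to the intervals only if it is right. The capitals are the seed, bases 2 to 8, and no seed was shared among the 8 mature sequences of the 4 hairpins. In 3 of the hairpins the 3p sequence ends where the gap ends, so its last letters, cag, are the last letters of the gap.
hsa-miR-33b-5p: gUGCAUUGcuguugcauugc
hsa-miR-33b-3p: cAGUGCCUcggcagugcagccc
hsa-miR-6777-3p: uCCACUCUccuggcccccag
hsa-miR-6775-3p: aGGCCCUGuccucugccccag
hsa-miR-6739-3p: aUUGUUCUgucuuucucccag

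Libraries held 1584517 to 6773386 recovered T-to-C reads. JQ1-VHL nuclear replicate 3 was the shallowest, with 30.5% of intervals at 0, against 8.76% and 10.2% in the other JQ1-VHL nuclear libraries. Of 11 luminal marker genes, 10 were in the table, and their summed level was 5491 to 5695 CPM in DMSO total RNA and 3832 to 4679 CPM in JQ1-VHL total RNA. MUC1 had no interval. Of 6 basal or mesenchymal markers only FN1 was in the table (1.80 CPM), none of 3 blood markers was, and COL1A1 was listed at 78.0 CPM and ALB at 6.53 CPM. Those markers' part in the results below was not tested. Among the luminal markers, SPDEF, ERBB2 and TFAP2B held nuclear-retained intervals themselves.

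The choice was uneven over single libraries. In batch 1 alone 2311 of the 2926 met both conditions, in batch 2 alone 2288, in batch 3 alone 2300, and in every batch 1449. In 2923 the lowest DMSO nuclear library lay above the highest DMSO cytoplasmic library, which the choice itself favours. Without 1 DMSO library at a time, 2579 to 3247 intervals met the rule. The members nearest to the fold threshold were CD46 10, ZRANB2 2 and SCAMP3 6, with DMSO nuclear means of 281, 27.1 and 20.5 CPM against 34.6, 2.89 and 2.06 CPM in the cytoplasm. Just outside were ZNRF2 8, SAP130 3 and USP22 3, at 21.2, 28.4 and 51.3 CPM against 2.14, 3.06 and 5.92 CPM.

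Most of the chosen intervals were of moderate level. Their median was 32.6 CPM in DMSO nuclear, 12.8 CPM in DMSO total and 1.90 CPM in DMSO cytoplasmic RNA, and the highest, PRODH 5, reached 694 CPM in the nucleus. Together they held 12.4% to 14.5% of the T-to-C reads of the 3 DMSO nuclear libraries and 0.519% to 1.06% of the DMSO cytoplasmic libraries. In DMSO total RNA, which took no part in the choice, they held 4.84% to 5.95%. Under JQ1-VHL these shares were 7.39% to 9.91% in nuclear RNA, 2.56% to 3.29% in total RNA and 0.375% to 0.588% in cytoplasmic RNA. The total libraries of the treatments did not overlap.

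**Figure D1:**
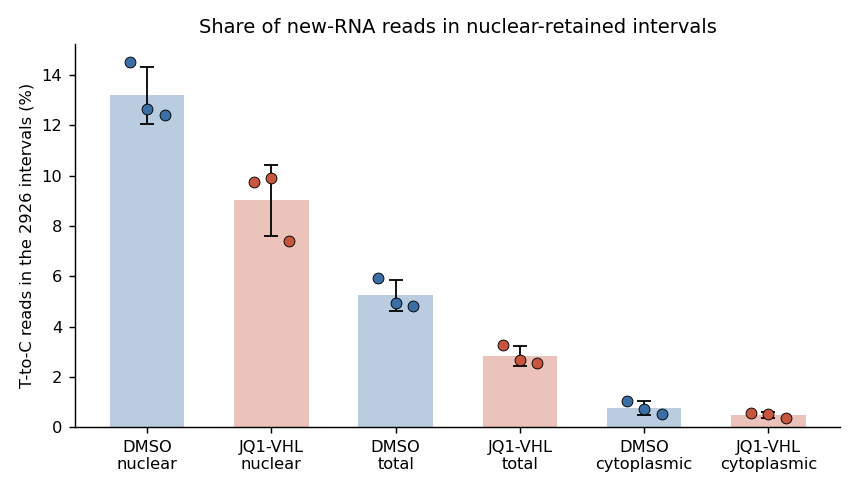
Share of T-to-C reads (percent, vertical axis) that fell in the 2926 nuclear-retained intervals, for 3 libraries in each of 6 groups; points are libraries, bars are means and lines are 1 SD. The DMSO nuclear and DMSO cytoplasmic libraries chose the intervals; in total RNA the DMSO libraries sit between 4.84% and 5.95% and the JQ1-VHL libraries between 2.56% and 3.29%.

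The first comparison asked whether the same intervals were higher in nuclear than in cytoplasmic RNA of cells given JQ1-VHL, in libraries that had no part in choosing them. Under JQ1-VHL, 2728 of the 2926 were higher in nuclear than in cytoplasmic RNA and 0 were lower (limma on log2(CPM + 0.5), Benjamini-Hochberg adjusted p under 0.05). Over all 65031 intervals tested, 45.2% were higher and 10.7% were lower. At an unadjusted p under 0.05, 0 of the 2926 were lower too, and edgeR and DESeq2 on the recovered reads called 0 lower. The median log2 difference was 3.38, against 1.13 over all tested intervals and 0.41 over the 7751 intervals of at least 20 CPM that missed the fold in DMSO. In 2506 of them (85.6%) every nuclear library lay above every cytoplasmic library, against 43.6% of all tested intervals. Sizes depend on the scale: on the ERCC scale of the deposited table, 878 were higher and 8 lower, while all tested intervals went from 29389 higher and 6956 lower to 3550 higher and 22798 lower. The median over all tested intervals moved from 1.13 to -0.98 with that scale, and the nuclear-retained intervals stood 2.25 above it on the CPM scale and 2.53 above it on the ERCC scale. Over all tested intervals, median-of-ratios scaling gave 24120 higher and 11227 lower, edgeR 21226 and 13700, and DESeq2 26043 and 10820, while of the nuclear-retained intervals they called 2647, 2707 and 2796 higher.

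**Figure D2:**
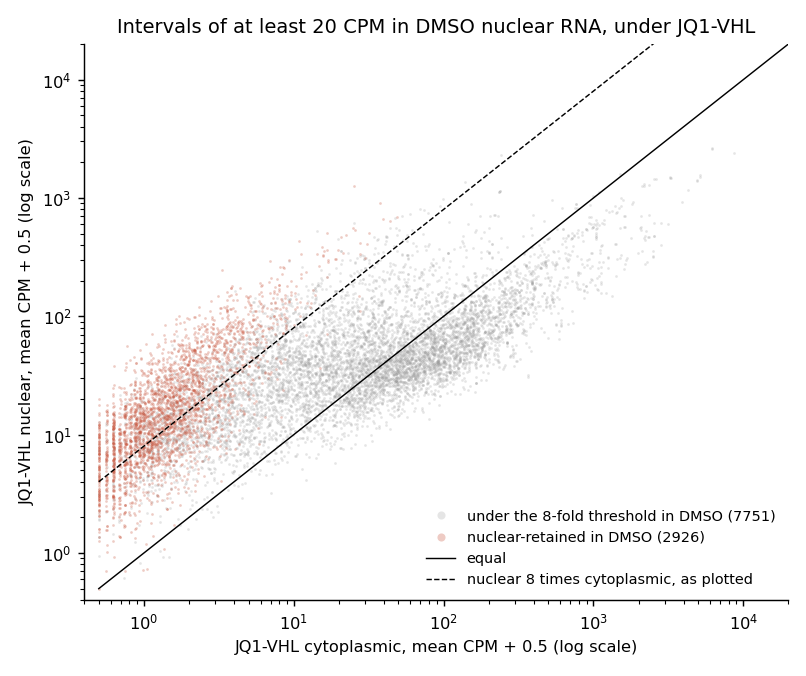
Mean CPM + 0.5 under JQ1-VHL in cytoplasmic (horizontal, log scale) and nuclear RNA (vertical, log scale) for the 2926 nuclear-retained intervals (red) and the 7751 other intervals of at least 20 CPM in DMSO nuclear RNA (grey); each point is 1 interval and a mean of 3 libraries. Of the red points 2921 lie above the line of equal level, 4 below it and 1 on it, with a median log2 difference of 3.38.

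Fewer met the thresholds of the choice itself, which a choice on DMSO values favours. Under JQ1-VHL, 1886 of the 2926 were at least 8 times the cytoplasmic mean plus 0.5, 1109 had at least 20 CPM in nuclear RNA, and 1025 met both. In single DMSO batches, which took part in the choice, 2288 to 2311 met both. The 198 that did not pass the test had a median of 3.54 CPM in JQ1-VHL nuclear RNA, against 27.4 CPM in DMSO nuclear RNA, and 192 of their estimates were above 0. The lowest estimates belonged to SLC1A7 1, a glutamate transporter gene, at -0.65 ± 0.53 (SE, adjusted p = 0.31, limma), and to ITPKB 8, an inositol trisphosphate kinase gene, at -0.65 ± 0.66 (adjusted p = 0.41). TFAP2B 3, DNPEP 2, IGFBP3 4, TMEM134 2 and NINJ1 3 had estimates between -0.13 and 0.27, none past the threshold. EDN2 1, in the endothelin 2 gene, had 0 reads in all 6 JQ1-VHL nuclear and cytoplasmic libraries, so no difference could be measured. Each of these 8 fell in total RNA under JQ1-VHL, by 1.34 (TMEM134 2) to 4.31 (TFAP2B 3) on the log2 scale, against 53.1% of all nuclear-retained intervals called lower. Their choice favours this, since few reads under JQ1-VHL give a small difference between fractions. TFAP2B 3, for example, had means of 0.21 CPM in JQ1-VHL nuclear and 0.25 CPM in JQ1-VHL cytoplasmic RNA. The call of TMEM134 2 was lost without any 1 of the 6 total libraries (adjusted p from 0.054 to 0.15).

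The largest differences between fractions under JQ1-VHL came from intervals with almost no cytoplasmic reads. ARFGAP2 6, in the gene of a coat protein regulator of the Golgi, measured 57.3, 58.3 and 51.8 CPM in the 3 nuclear libraries and 0.801, 0 and 0 CPM in the cytoplasmic libraries. Its log2 difference was 6.35 ± 0.35 (adjusted p = 2.9e-10, limma). Taking 1 interval a gene, the next 7 were SMPD4BP 10, WDR90 26, PCNX3 27, THBS1 2, PRPSAP1 5, ZC3H14 7 and TMEM63A 15, with log2 differences of 6.27 down to 5.95. THBS1 1, from the same gene as THBS1 2, stood at 6.02. SMPD4BP is a transcribed pseudogene with near-identical relatives, so reads could be split between copies. ZC3H14 encodes a nuclear poly(A)-binding protein. Without JQ1-VHL cytoplasmic replicate 3 the estimates of WDR90 26 and THBS1 2 were 5.40 and 5.41. Without cytoplasmic replicate 2 that of PRPSAP1 5 was 5.27, and without cytoplasmic replicate 1 those of PCNX3 27 and THBS1 2 were 6.78 and 6.81.

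Position along the gene described the choice in part. Among intervals of at least 20 CPM in DMSO nuclear RNA that could be ordered from the 5′ end in genes with at least 4 intervals, 255 of 635 first intervals (40.2%) were nuclear-retained. The shares were 31.1% of 748 second, 25.5% of 7280 inner and 28.8% of 1294 last intervals. These shares come from the libraries that made the choice and carry no test. The order itself rests on 1 check: DMSO nuclear level and gap length had a median Spearman correlation within a gene of 0.370 on the plus strand (984 genes) and 0.350 on the minus strand (780 genes) when numbers ran along the genome. In the opposite order the medians were 0.0559 and 0.0549. The check used only genes whose intervals could be placed by count. For other genes the same order was assumed. RPS3, DDX5, FASN and SREBF2 are among those, so the positions given below for their intervals are an inference.

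Most of the genes were protein-coding, and 2794 of the 2926 intervals lay in them. Long noncoding genes held 68, in 54 genes, which is 47.2% of their 144 intervals of at least 20 CPM, against 27.4% over all genes. Of the 68, 66 were higher in JQ1-VHL nuclear than cytoplasmic RNA, with a median of 3.72. Pseudogenes held 44, of 63 of at least 20 CPM, and all 44 were higher in the nucleus. Over all nuclear-retained intervals 93.2% were higher and the median was 3.38, so these calls are near what the whole set gave. The genes of 947 intervals overlap another protein-coding gene, and the strand counted is not given in the sources used here, so reads of such partners could be mixed. Their median difference between fractions under JQ1-VHL was 3.34, against 3.40 for the 1979 intervals in genes with no such overlap. Of the same 2926 intervals, 1929 had no nuclear-retained neighbour and 997 did. Of the 632 pairs of neighbours, 53 differed by under 5% in their summed DMSO nuclear reads, so some pairs may share reads. Every interval was still counted on its own in all counts and tests here, so counts of intervals of the same gene are not counts of independent units.

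Setting each interval against the other intervals of its gene gave 2 kinds of pattern. The kinds were defined from the DMSO libraries, in genes with at least 3 intervals of 20 CPM or more. In 145 genes at least 80% of those intervals were nuclear-retained; these are called gene-wide and hold 700 intervals. In 289 genes no more than 1 in 3 was; these are called solitary and hold 342. Another 181 genes (531 intervals) lie in between, and 1184 genes (1353 intervals) had fewer than 3 intervals of that level.

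The kinds were then compared in JQ1-VHL libraries, which took no part in defining them. The test asked whether an interval's share of its gene differed between nuclear and cytoplasmic RNA. Over the 2856 nuclear-retained intervals that could be tested, 826 had a higher share in the nucleus and 119 a lower share (limma on log2 ratios). Over all 63526 tested, 8.29% were higher and 13.8% lower, and over those of at least 20 CPM that missed the fold, 9.45% and 8.34%. Of the 342 solitary intervals, 198 had a higher share and 1 a lower share, with a median log2 difference of 2.08. Of the 700 gene-wide intervals, 42 were higher and 87 lower, with a median of -0.28. The definition favours this contrast, since it asked in DMSO how many of the gene's other intervals met the fold between fractions. The count of lower shares over all 2856 depended on the settings. It was 28 with a pseudocount of 0.1, 626 with 2, 31 when the other intervals were only those not nuclear-retained, and 70 without JQ1-VHL cytoplasmic replicate 3, while the count of higher shares was 821, 807 and 920 in the first 3 of these. The other intervals of at least 20 CPM in the genes with solitary intervals numbered 1173, and their median nuclear minus cytoplasmic difference under JQ1-VHL was 1.08, with 674 higher and 194 lower.

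RPS3, which encodes a protein of the small ribosomal subunit, showed the solitary pattern. RPS3 8, its last interval, measured 247, 163 and 130 CPM in DMSO nuclear RNA and 10.9, 6.74 and 1.48 CPM in DMSO cytoplasmic RNA. Under JQ1-VHL it measured 347, 386 and 156 CPM in the nucleus and 12.02, 9.24 and 5.15 CPM in the cytoplasm. RPS3 5, of the same gene, went the other way under JQ1-VHL, with 712, 652 and 767 CPM in the nucleus and 2227, 2254 and 2520 CPM in the cytoplasm. No nuclear library of RPS3 8 overlapped a cytoplasmic library, and the reverse order held for RPS3 5. The log2 difference of RPS3 8 was 4.96 ± 0.37 (adjusted p = 1.4e-07, limma), that of RPS3 5 was -1.72 ± 0.09 (adjusted p = 1.7e-10), and the share of RPS3 8 in its gene differed by 6.77 ± 0.52 (adjusted p = 1e-04).

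Other solitary intervals gave the same order. RPS24 7, in another ribosomal protein gene, measured 72.6, 65.0 and 13.3 CPM in JQ1-VHL nuclear and 3.00, 2.84 and 1.29 CPM in cytoplasmic RNA, while its neighbour RPS24 6 measured 90.7, 99.9 and 60.6 CPM against 481, 502 and 710 CPM. Its share differed by 6.25 ± 0.62 (adjusted p = 0.00029, limma). RBMX 1, NUCKS1 7, WDR33 4, FANCI 26, CCNK 8 and KDM2A 24 had share differences between 3.03 and 5.25, all past the threshold, and that of WDR33 4 ran from 4.61 to 5.58 without 1 library. RBMX is an RNA-binding protein of the hnRNP family, WDR33 belongs to the polyadenylation complex, FANCI to DNA crosslink repair, CCNK is the cyclin of CDK12, and KDM2A is a histone demethylase. The examples RPS24 7, WDR33 4, RBMX 1 and NUCKS1 7 were chosen after their values were seen.

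Retained intervals could also sit at the ends of a gene. DDX5, a DEAD-box RNA helicase gene, held 4 nuclear-retained intervals, at both ends. DDX5 1, the last in gene order, measured 417, 327 and 351 CPM in DMSO nuclear and 13.97, 6.74 and 9.30 CPM in DMSO cytoplasmic RNA. Under JQ1-VHL it measured 186, 215 and 51.1 CPM against 4.21, 5.33 and 0.368 CPM. Its neighbour DDX5 2 measured 262, 246 and 187 CPM in the nucleus and 127, 139 and 49.2 CPM in the cytoplasm under JQ1-VHL. The log2 difference between fractions was 5.47 ± 0.82 for DDX5 1 (adjusted p = 0.00023, limma), 4.61 without JQ1-VHL cytoplasmic replicate 3 and 6.12 without JQ1-VHL nuclear replicate 3. For DDX5 2 it was 1.26 ± 0.29 (adjusted p = 0.0025). DDX5 overlaps CEP95 in the annotation. In total RNA DDX5 1 measured 177, 134 and 129 CPM in DMSO and 68.3, 31.7 and 11.3 CPM under JQ1-VHL, a difference of -2.30 ± 0.82 that did not pass the threshold (adjusted p = 0.067).

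**Figure D3:**
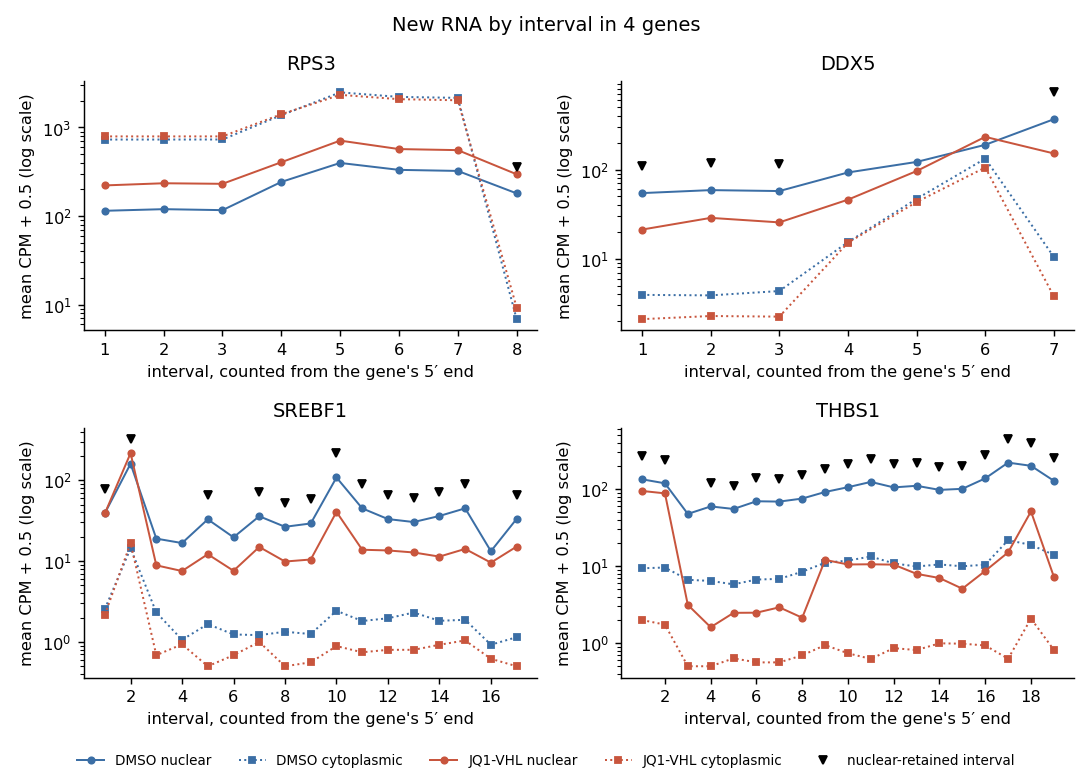
Mean CPM + 0.5 (vertical, log scale) of each interval, counted from the 5′ end of the gene (horizontal), in nuclear (solid) and cytoplasmic RNA (dotted) of 3 libraries under DMSO (blue) and JQ1-VHL (red), in RPS3, DDX5, SREBF1 and THBS1. Black triangles mark the nuclear-retained intervals and carry no level. In RPS3 the last of 8 intervals is higher in nuclear than in cytoplasmic RNA and the other 7 are lower, while in all 17 of SREBF1 and all 19 of THBS1 the nuclear mean lies above the cytoplasmic mean.

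Some genes held many nuclear-retained intervals. Among the genes with the most nuclear-retained intervals were FASN (28 of 41), FGFR4 (18 of 18), THBS1 (18 of 19), HID1 (15 of 16) and TNC (14 of 31 in the table). They encode fatty acid synthase, a fibroblast growth factor receptor, thrombospondin 1, a protein of secretory granule sorting and the matrix protein tenascin C. Under JQ1-VHL their nuclear minus cytoplasmic medians were 4.20, 3.38, 3.26, 2.35 and 5.03. All 28 of FASN, 18 of FGFR4 and 14 of TNC were called higher in the nucleus, as were 17 of 18 in THBS1 and 13 of 15 in HID1. FASN, whose product is a cytosolic enzyme, was not gene-wide, since 12 of its 40 intervals of at least 20 CPM missed the fold. For a list of 30 secreted, matrix and surface genes, 22 held 159 nuclear-retained intervals, 86.9% of their 183 intervals of at least 20 CPM, against 27.4% over all genes. The list was written after the intervals had been seen, so that share is a description only. Of the 159, 158 (99.4%) were higher in JQ1-VHL nuclear RNA, against 93.2% of all nuclear-retained intervals, with a median of 4.15.

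Under JQ1-VHL the nuclear-retained intervals fell in total RNA far more often than they rose. Total RNA took no part in their choice. The choice did ask for a high level in DMSO nuclear RNA and made no such demand on JQ1-VHL. That may favour lower JQ1-VHL values in total RNA too, and how far it does was not tested. In DMSO total RNA their median was 12.8 CPM, against 36.2 CPM for the 7751 intervals of at least 20 CPM that missed the fold. Of the 2926, 1554 (53.1%) were lower and 48 (1.64%) higher under JQ1-VHL (limma), in 1094 and 41 genes. Over all tested intervals 20.8% were lower and 2.06% higher, and over the 7751 of at least 20 CPM that missed the fold, 16.8% were lower and 9.41% higher. The median log2 change was -1.69, against -0.49 over all tested intervals and 0.08 over those 7751. In 2064 (70.5%) every JQ1-VHL total library lay below every DMSO total library, against 37.7% of all tested intervals. Over all tested intervals, edgeR with its own scaling gave 4659 higher and 8242 lower where limma gave 1340 and 13512, and moved their median to -0.16, and DESeq2 gave 2895 and 11142. The nuclear-retained intervals stood 1.20 under the median of all tested intervals with limma and 1.17 under it with edgeR. Of the nuclear-retained intervals, edgeR called 1316 lower and 162 higher, DESeq2 1542 and 115, and the ERCC scale gave 144 and 3. A pseudocount of 0.1 gave 969 lower and a filter at 5 CPM 748. The number called lower was 978 without DMSO total replicate 1 and 908 without JQ1-VHL total replicate 3. The number called higher was 21 to 30 without any 1 total library.

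Nuclear and cytoplasmic RNA of DMSO cells chose the intervals, so their change in those fractions is given without a test. In nuclear RNA the median log2 change of the means was -1.28, with 2394 lower and 532 higher by sign, and 1719 fell by at least 1 while 103 rose by at least 1. Over the 7751 that missed the fold the median was 0.29. In cytoplasmic RNA the median was -0.68, with 2307 lower and 617 higher. A choice for high DMSO nuclear values by itself favours lower values in other nuclear libraries.

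**Figure D4:**
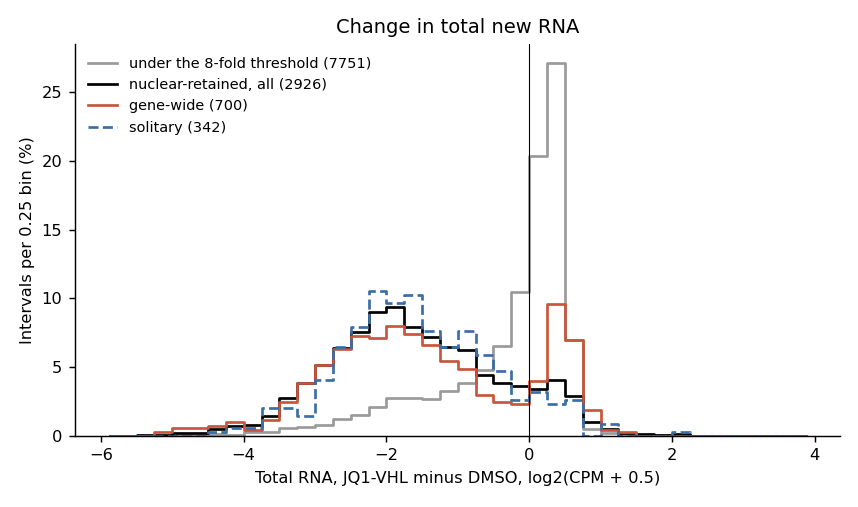
Distribution of the log2 change of total RNA, JQ1-VHL minus DMSO (horizontal), as the percentage of intervals in each bin of 0.25 (vertical), for all 2926 nuclear-retained intervals, the 700 gene-wide and 342 solitary ones, and the 7751 that missed the fold. The medians are -1.69, -1.56, -1.62 and 0.08, and the gene-wide intervals show a further peak above 0.

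The gene-wide genes differed widely in their change. Of the 145 genes, 101 had a median change in total RNA under -1 and 47 under -2, while 29 had a median above 0. All nuclear-retained intervals were called lower in 34 of the genes, and none was called either way in 31. SPDEF and THBS1 lay at the low end, while TNC, AGRN, NOTCH3, PTPRF, ELAPOR1 and IGF2R, described below, had medians above 0. The gene medians ran from -4.41 to 0.85.

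FGFR4 fell along its whole length. FGFR4 12 measured 97.0, 83.3 and 93.9 CPM in DMSO total RNA and 17.4, 15.1 and 10.4 CPM under JQ1-VHL, with no overlap. Its change was -2.66 ± 0.27 (adjusted p = 5.6e-05, limma). All 18 intervals of FGFR4 were called lower, from -3.63 to -0.94. Over all nuclear-retained intervals 53.1% were called lower, and over all tested intervals 20.8%. The log2 difference between fractions under JQ1-VHL was 4.04 ± 0.27 for FGFR4 12 (adjusted p = 3e-09), so at the lower level the interval was still higher in the nuclear pellet. HID1 (13 of 15 called lower, median -2.52), SEMA3F (10 of 10, -2.83), a semaphorin gene, SLC38A2 (10 of 10, -2.77) and SLC3A2 (9 of 10, -2.73), which serve amino acid uptake, and ESRP2 (9 of 9, -2.51), an epithelial splicing regulator, fell likewise. These genes other than HID1 and FGFR4 were chosen after their values were seen.

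Some of the deepest falls were in lineage transcription factor genes. SPDEF, an ETS factor of luminal and secretory epithelium, and TFAP2B, an AP-2 factor, held 4 nuclear-retained intervals each, and all 8 were called lower. TFAP2B 4 measured 33.1, 38.6 and 45.2 CPM in DMSO total RNA and 0.901, 0.666 and 0 CPM under JQ1-VHL, a change of -5.39 ± 0.65 (adjusted p = 0.00015, limma). SPDEF 4 measured 57.3, 52.6 and 44.3 CPM against 0.676, 3.33 and 0.217 CPM, a change of -5.13 ± 0.63 (adjusted p = 0.00018), which was -5.81 without JQ1-VHL total replicate 2. The groups did not overlap in either. ANKRD30A 39, in a breast differentiation antigen gene, measured 100, 76.5 and 92.0 CPM against 3.16, 3.33 and 3.91 CPM, a change of -4.50 ± 0.40 (adjusted p = 1.8e-05). MAB21L4 1, P2RY6 4, a nucleotide receptor gene, and EPN3 2, an endocytic adaptor gene, changed by -4.61, -4.56 and -4.77. Without 1 total library those of MAB21L4 1 ran from -5.47 to -4.18 and those of P2RY6 4 from -5.04 to -3.95. UNC5B 17, in a netrin receptor gene, had 0 reads in all 3 JQ1-VHL total libraries, and against a floor of 3 reads in each library its DMSO mean of 11.04 CPM was at least 16.6-fold higher. In a list of 27 luminal factors and receptors, 7 genes held 47 nuclear-retained intervals; 42 (89.4%) were lower and 0 higher in total RNA, against 53.1% and 1.64% of all nuclear-retained intervals and 20.8% and 2.06% of all tested, with a median of -2.41. Between fractions, 0 of the 4 in TFAP2B and 3 of the 4 in SPDEF were called higher in JQ1-VHL nuclear than cytoplasmic RNA, against 2728 of all 2926. Levels were low there, with JQ1-VHL nuclear means of 0.21 to 1.92 CPM in TFAP2B and 2.69 to 9.29 CPM in SPDEF. At such levels an uncalled interval does not show that the difference was lost.

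Another set of gene-wide genes had no interval called lower. Apart from TNC, these genes were chosen for description after their values were seen. HSPA5 4, in the gene of the endoplasmic reticulum chaperone BiP, measured 221, 203 and 197 CPM in DMSO total RNA and 284, 254 and 225 CPM under JQ1-VHL. The change of 0.30 ± 0.39 did not pass the threshold (adjusted p = 0.63, limma). Its JQ1-VHL nuclear libraries measured 536, 544 and 426 CPM and the cytoplasmic libraries 46.9, 35.9 and 10.9 CPM, a log2 difference of 4.21 ± 0.39 (adjusted p = 2.6e-06), and 3.59 without JQ1-VHL cytoplasmic replicate 3. HSPA5 held 6 nuclear-retained intervals of 7, with changes in total RNA from -0.04 to 0.33. TNC had changes from 0.31 to 0.65 over its 14 intervals, none past the threshold. ELAPOR1, PTPRF, IGF2R and CD46 ran from 0.04 to 0.61 over 26 intervals, none past the threshold. AGRN, which encodes the basement membrane protein agrin, had 2 of 6 called higher, and NOTCH3, a receptor gene, 2 of 6. Over all nuclear-retained intervals 1.64% were called higher. AGRN 20 measured 19.5, 18.3 and 24.1 CPM in DMSO total RNA and 53.9, 53.0 and 44.6 CPM under JQ1-VHL, a change of 1.27 ± 0.24 (adjusted p = 0.0022). Its log2 difference between fractions under JQ1-VHL was 5.52 ± 0.24 (adjusted p = 2.1e-11). APP 11, PSAP 9 and CD46 9, among the 10 highest in DMSO total RNA, had fraction differences of 3.89, 4.18 and 4.61 and changes in total RNA of 0.54, 0.49 and 0.27, none of which passed the threshold.

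The amyloid precursor gene APP and the prosaposin gene PSAP each held an interval that fell. Over 4 nuclear-retained intervals APP ran from -1.27 to 0.54 and PSAP from -3.06 to 0.77. PLXNB2, a plexin gene, ran from -1.70 to 0.60 over 11, with 1 called lower and 0 higher.

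THBS1 (chr15:39581079-39599466, plus strand, GRCh38), whose product is a secreted matrix glycoprotein, changed along its length. THBS1 1 and THBS1 2, at the 5′ end, had changes nearer to 0 than its other nuclear-retained intervals, and neither passed the threshold. THBS1 1 measured 77.4, 73.4 and 61.0 CPM in DMSO total RNA and 37.0, 21.3 and 26.7 CPM under JQ1-VHL, a change of -1.33 ± 0.51 (adjusted p = 0.077, limma). THBS1 6 measured 58.6, 31.8 and 28.9 CPM against 0.901, 0.222 and 1.09 CPM, a change of -5.03 ± 0.47 (adjusted p = 3.4e-05). The groups did not overlap in either. The 16 nuclear-retained intervals of THBS1 other than THBS1 1 and THBS1 2 were all called lower, against 53.1% of all nuclear-retained intervals. Within the gene, the share of THBS1 1 rose by 2.29 ± 0.39 (adjusted p = 0.024) and that of THBS1 2 by 2.33 ± 0.37 (adjusted p = 0.021). Both calls were lost without DMSO total replicate 2 or 3 or JQ1-VHL total replicate 3, where 0 nuclear-retained intervals gained share. Without DMSO total replicate 1 or JQ1-VHL total replicate 2 only 1 nuclear-retained interval gained share, so at least 1 of these calls was lost there too. In the nucleus THBS1 1 measured 179, 124 and 97.5 CPM in DMSO and 99.7, 85.6 and 97.2 CPM under JQ1-VHL, and THBS1 6 measured 106, 55.2 and 45.6 CPM and then 2.78, 1.90 and 1.26 CPM. Under JQ1-VHL the log2 difference between fractions was 6.02 ± 0.51 for THBS1 1 (adjusted p = 4.9e-07), and 5.26 to 6.74 without 1 cytoplasmic library. THBS1 overlaps FSIP1 in the annotation.

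SREBF1 and SREBF2 encode the sterol regulatory element binding proteins, which switch on lipid synthesis genes, and they carry microRNAs of the miR-33 family in introns. Both genes were chosen for description after their values were seen. SREBF1 16, second from the 5′ end, measured 55.1, 101 and 82.6 CPM in DMSO total RNA and 77.1, 84.6 and 82.4 CPM under JQ1-VHL, a change of 0.08 ± 0.28 (adjusted p = 0.88, limma). The groups overlapped. SREBF1 8, further down, measured 46.5, 33.2 and 24.8 CPM and then 13.5, 5.33 and 7.61 CPM, a change of -1.97 ± 0.52 (adjusted p = 0.013). Of the 13 nuclear-retained intervals of SREBF1, 11 were called lower, against 53.1% of all nuclear-retained intervals. The 2 nearest the 5′ end were not. The share of SREBF1 16 in its gene changed by 1.74 (adjusted p = 0.073, limma) and that of SREBF1 17 by 0.83 (adjusted p = 0.21), neither past the threshold.

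Which interval holds a microRNA rests on the placement by number, which is an inference. SREBF1 6, which by that placement holds MIR33B, measured 16.2, 7.90 and 8.72 CPM in DMSO total RNA and 3.61, 2.00 and 1.52 CPM under JQ1-VHL, a change of -1.99 ± 0.61 (adjusted p = 0.028, limma). SREBF1 5, which holds MIR6777, changed by -2.02 ± 0.60 (adjusted p = 0.024). Values of SREBF1 5 and SREBF1 6 were close in every library, so they may share reads. The calls of SREBF1 5 and SREBF1 6 were lost without any 1 total library other than JQ1-VHL replicate 1 (largest adjusted p 0.1 and 0.12). The call of SREBF1 8 was lost without JQ1-VHL total replicate 2 or 3 or DMSO total replicate 1 (largest adjusted p 0.065). Under JQ1-VHL SREBF1 6 measured 19.4, 17.1 and 2.52 CPM in the nucleus and 0, 0.711 and 0.184 CPM in the cytoplasm, a log2 difference of 3.78 ± 0.61 (adjusted p = 7.2e-05), and 4.65 without JQ1-VHL nuclear replicate 3. IPO9 15, which holds MIR6739, differed by 2.85 ± 0.49 between fractions (adjusted p = 0.00013). SLC7A5 2, which holds MIR6775, differed by 2.03 ± 0.68 (adjusted p = 0.019), a call lost without JQ1-VHL nuclear replicate 3 (1.24, adjusted p = 0.068) and without cytoplasmic replicate 1 (adjusted p = 0.083) or 2 (adjusted p = 0.058). Without nuclear replicate 1 it was 2.71. These are reads of the host interval and not measurements of the mature microRNAs.

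SREBF2 also held an interval at its 5′ end that was not called lower. Over the 255 nuclear-retained first intervals, 51.8% were lower and 2.75% higher in total RNA, close to the 53.1% and 1.64% of all nuclear-retained intervals. Of the 255, 1.57% gained share, against 0.98% of all nuclear-retained intervals tested, so the genes named here do not stand for first intervals in general. SREBF2 1, at its 5′ end, measured 103, 44.2 and 102 CPM in DMSO total RNA and 142, 99.2 and 200 CPM under JQ1-VHL, a change of 0.87 ± 0.31 (adjusted p = 0.059, limma), while SREBF2 22 changed by -1.77 ± 0.50 (adjusted p = 0.018, which was 0.1 without JQ1-VHL total replicate 3 and 0.09 without DMSO total replicate 1). The share of SREBF2 1 in its gene rose by 2.48 ± 0.47 (adjusted p = 0.029, limma). That call was lost without DMSO total replicate 2 or 3 or JQ1-VHL total replicate 3. Without DMSO total replicate 1 or JQ1-VHL total replicate 2, at most 1 of the gains of share named in this text was kept. In 10 genes of sterol and fatty acid synthesis, a list written after the intervals had been seen, 62 of 62 nuclear-retained intervals were higher in JQ1-VHL nuclear RNA, against 93.2% of all. In total RNA 22 (35.5%) were lower and 1 higher, against 53.1% lower over all nuclear-retained intervals, with a median of -0.50. The 1 higher was FASN 40, second from the 5′ end of its gene (1.41 ± 0.37, adjusted p = 0.013, which was 0.06 without DMSO total replicate 2).

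Over all nuclear-retained intervals, such changes of share in total RNA were few. Of 2856 tested, 174 lost share and 28 gained share under JQ1-VHL (limma), against 1.91% and 1.33% of all tested intervals and 1.35% and 0.916% of those of at least 20 CPM that missed the fold. The solitary intervals made 53 of the 174. These counts rested on single libraries: the number that lost share was 6, 5 and 9 without DMSO total replicates 1, 2 and 3, and 114, 33 and 10 without JQ1-VHL total replicates 1, 2 and 3. The number that gained share was 0 without DMSO total replicate 2 or 3 or JQ1-VHL total replicate 3, 1 without DMSO total replicate 1 or JQ1-VHL total replicate 2, and 10 without JQ1-VHL total replicate 1.

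In total RNA 48 nuclear-retained intervals rose (limma), a count that ran from 3 on the ERCC scale to 162 with edgeR and was 21 to 30 without any 1 total library. The leading ones came from unlike genes. EGR1 1, the single interval of an immediate early transcription factor gene, measured 6.70, 23.5 and 22.5 CPM in DMSO total RNA and 40.6, 106 and 88.9 CPM under JQ1-VHL. Every JQ1-VHL library lay above every DMSO library, and the change was 2.21 ± 0.45 (adjusted p = 0.0053, limma). Batch 1 was low in both treatments, and DMSO nuclear replicate 1 held 1.85 CPM against 47.3 and 61.0 CPM in the others, so batch 1 alone would not have chosen EGR1 1. Of the 8 with the highest rise it had the smallest difference between fractions: under JQ1-VHL it measured 154, 110 and 69.4 CPM in the nucleus and 29.2, 25.2 and 27.2 CPM in the cytoplasm, a log2 difference of 1.94 ± 0.45 (adjusted p = 0.0026). FOS 2, of another immediate early gene and chosen after its values were seen, measured 5.96, 17.2 and 17.7 CPM in DMSO total RNA and 12.6, 57.7 and 40.4 CPM under JQ1-VHL, a change of 1.31 ± 0.55 that did not pass the threshold (adjusted p = 0.11).

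H2AC6 1, in a histone H2A gene, measured 27.9, 28.7 and 36.9 CPM in DMSO total RNA and 137, 126 and 145 CPM under JQ1-VHL. The groups lay far apart, with a change of 2.12 ± 0.31 (adjusted p = 0.00083, limma) and a fraction difference of 4.75 ± 0.31 (adjusted p = 1e-08). BPTF 12, in the gene of a chromatin remodeling subunit, measured 4.84, 15.1 and 18.1 CPM and then 45.3, 43.1 and 62.6 CPM, a change of 2.11 ± 0.34 (adjusted p = 0.0012). Its share of the gene rose by 2.63 ± 0.46 (adjusted p = 0.024, limma). That call was lost at least without DMSO total replicate 2 or 3 or JQ1-VHL total replicate 3. MASP2 1, in a complement protease gene, LIN52 1, in the gene of a cell cycle repressor subunit, and ENOSF1 14, which overlaps TYMS, rose by 1.87, 1.55 and 1.495. ENSG00000268083 1, a gene ID that overlaps HNRNPL and ECH1, rose by 2.00 ± 0.42 (adjusted p = 0.0071), and without strand its reads cannot be told apart from those genes. FANCI 26 rose by 1.04 ± 0.24 (adjusted p = 0.0066). PRODH 5, in the proline dehydrogenase gene and the highest of all, measured 201, 311 and 271 CPM in DMSO total RNA and 365, 404 and 331 CPM under JQ1-VHL, a change of 0.51 ± 0.18 (adjusted p = 0.049). That call was kept without DMSO total replicate 2 and lost without any other total library (adjusted p from 0.078 to 0.24).

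**Figure D5:**
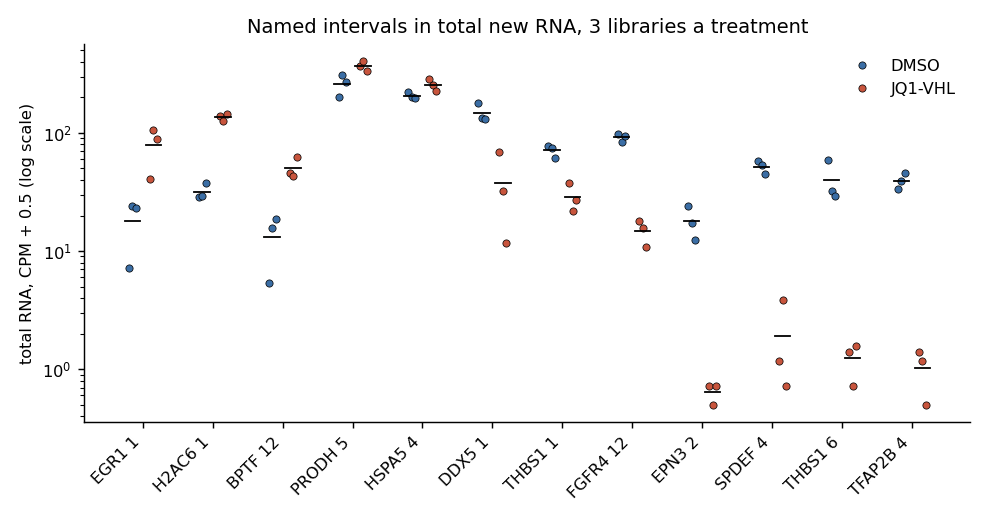
CPM + 0.5 in total RNA (vertical, log scale) of 12 nuclear-retained intervals in 3 DMSO (blue) and 3 JQ1-VHL libraries (red); points are libraries and lines are means of the plotted values. EGR1 1, H2AC6 1 and BPTF 12 rise, HSPA5 4 lies between 197 and 284 CPM in all 6, and SPDEF 4, THBS1 6 and TFAP2B 4 fall to a few CPM or less.

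The promoters of EGR1 and THBS1 are shown because their genes held the highest rise and a deep fall. The 250 bases before each RefSeq start were searched on both strands for the CArG box, the site of serum response factor, and for TATAAA and CCAAT, and matches are in capitals. EGR1 (chr5:138465229-138465478, plus strand, GRCh38.p14) held 2 matches of the CArG box. Of 35116 RefSeq promoter windows of this length, 1.16% hold at least 1 match of it. THBS1 (chr15:39580829-39581078, plus strand) held no CArG box and 1 match of CCAAT, on the minus strand, which 32.0% hold. Neither held TATAAA, which 10.7% hold. A match describes letters and not binding.
EGR1: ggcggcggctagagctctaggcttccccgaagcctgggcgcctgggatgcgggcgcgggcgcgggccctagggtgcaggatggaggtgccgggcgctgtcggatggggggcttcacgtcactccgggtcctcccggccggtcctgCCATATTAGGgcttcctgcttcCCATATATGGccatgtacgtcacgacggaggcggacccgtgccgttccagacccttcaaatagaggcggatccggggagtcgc
THBS1: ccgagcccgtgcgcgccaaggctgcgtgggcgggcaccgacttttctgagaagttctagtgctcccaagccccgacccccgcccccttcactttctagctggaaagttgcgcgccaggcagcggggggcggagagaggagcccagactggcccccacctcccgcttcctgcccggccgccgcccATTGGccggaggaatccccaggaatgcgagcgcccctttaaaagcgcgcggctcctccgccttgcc

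Gene lists for RNA processing were set beside these. Of 31 genes reported in other cells to hold detained introns, 14 held 28 nuclear-retained intervals, which is 27.7% of their intervals of at least 20 CPM and close to the 27.4% over all genes. Of the 28, 26 (92.9%) were higher in JQ1-VHL nuclear RNA, against 93.2% of all nuclear-retained intervals. A higher share of their gene there was called for 12 (42.9%, against 28.9%), and in total RNA 9 were lower (32.1%, against 53.1%) and 0 higher. CCNL2 1, in a cyclin L gene, measured 79.1, 69.3 and 62.0 CPM in DMSO total RNA and 82.0, 85.2 and 63.0 CPM under JQ1-VHL, and the groups overlapped. Of the nuclear speckle, SR protein and CLK kinase list, 13 genes held 25 nuclear-retained intervals, 18.2% of those of at least 20 CPM. All 25 were higher in the nucleus, and 12 (48.0%) were lower in total RNA. LUC7L 8 and SRSF4 10, of splicing factors, differed between fractions by 4.91 ± 0.24 and 4.13 ± 0.28 (adjusted p = 8e-11 and 2.7e-09, limma), and changed by 0.57 and -0.72 in total RNA, neither past the threshold. CLK1 7, in a kinase gene known for introns held in the nucleus and chosen after its values were seen, differed by 5.05 ± 0.43 between fractions (adjusted p = 5.5e-08).

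The other lists differed in how many intervals they held. Nuclear RNA decay and 3′ end processing had 15 (35.7% of those of at least 20 CPM), with CPSF7 2, of a cleavage factor, lower by 1.93 ± 0.44 in total RNA (adjusted p = 0.0061, limma). DNA repair and replication had 29 (41.4%), histone enzymes 15 (21.1%), BET and P-TEFb factors 7 (23.3%), and nuclear and imprinted noncoding RNA 8 (32.0%). The core spliceosome had 8 (9.09%), hnRNP genes 9 (9.57%) and mRNA export and pore genes 6 (12.8%). Cytosolic ribosomal protein genes had 7 of 144 (4.86%), and circadian genes had 0 of 3. In each of these lists with an interval none was lower in the nucleus under JQ1-VHL, and at most 2 were not called higher. Over all nuclear-retained intervals 0 were lower and 93.2% higher. In total RNA the decay list had 7 lower and 0 higher, DNA repair 13 and 1, histone enzymes 9 and 0, BET and P-TEFb 2 and 0, noncoding RNA 3 and 0, spliceosome 3 and 0, hnRNP 4 and 0, export and pore 3 and 0, and ribosomal proteins 1 and 0. Against 53.1% lower over all nuclear-retained intervals, the share lower was 60.0% for histone enzymes, 50.0% for export and pore, 46.7% for decay and 44.8% for DNA repair, and it ran from 14.3% (ribosomal proteins) to 44.4% (hnRNP) in the rest. The immediate early and MYC list had 6, of which 3 were lower, among them MXD4 3 by 2.61 ± 0.51 (adjusted p = 0.0028), and 1, EGR1 1, higher. The last 2 lists were written after the intervals had been seen. Of 39 in amino acid transporter genes 28 (71.8%) were lower and 0 higher, and of 29 in endoplasmic reticulum chaperone and translocation genes 5 (17.2%) were lower and 2 higher.

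AZGP1 1, NHERF1 3 and ZFAS1 8 complete the 10 highest in DMSO total RNA. AZGP1, which encodes the secreted zinc-alpha-2-glycoprotein, fell from 131, 182 and 190 CPM to 69.0, 77.7 and 45.2 CPM, a change of -1.40 ± 0.24 (adjusted p = 0.0014, limma). NHERF1 3, in a membrane scaffold gene, fell from 181, 157 and 137 CPM to 52.1, 29.1 and 13.9 CPM, a change of -2.49 ± 0.54 (adjusted p = 0.0084). SLC38A2 12 fell from 93.5, 160 and 207 CPM to 36.5, 38.4 and 37.2 CPM, a change of -1.95 ± 0.23 (adjusted p = 0.00012). ZFAS1 8, in a noncoding host of small nucleolar RNAs, measured 228, 144 and 146 CPM and then 192, 71.0 and 63.0 CPM, and its change of -0.82 ± 0.62 did not pass the threshold (adjusted p = 0.38). Its share of the gene was higher in JQ1-VHL nuclear RNA by 2.85 ± 0.28 (adjusted p = 0.00026).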

How the data were processed

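Per the submitters' processing notes, bcl2fastq, Trimmomatic 0.39, HISAT2, HTSeq and DESeq2 were used, with GRCh37/hg19 and dm3; roles and order are not given in the sources used here. The deposited table holds 1 value per interval and library, recorded as signal. These are counts of T-to-C reads that the authors scaled by a single ERCC factor for each library. Values were whole multiples of the smallest within 0.01 of a read in 100% of cases, so reads were recovered (1584517 to 6773386 per library). PCR reads are not independent molecules.

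CPM was tested as log2(CPM + 0.5) with limma 3.58.1 (R 4.3.3; trend, robust, two-sided, Benjamini-Hochberg at 0.05) over the 12 libraries that did not choose the intervals, 1 mean for each of 4 groups, keeping intervals with a mean of at least 1 CPM. All 2926 passed that filter. An interval's share is its CPM + 0.5 over that of the gene's other intervals. Comparisons of DMSO nuclear or cytoplasmic libraries were not tested. The scripts were tested on simulated data. The members and lists were chosen with earlier results of these data known; 4 lists (secreted and surface, sterol and fatty acid, amino acid transporter, endoplasmic reticulum), and genes said so in the text, were chosen after the values were seen. Descriptions over the intervals of HSPA5, ELAPOR1, PTPRF, IGF2R, CD46, AGRN and NOTCH3 were also chosen after values were seen. The same holds for APP, PSAP, PLXNB2, SREBF1, SREBF2, SPDEF and TFAP2B. Other named intervals follow a rule on level (10 highest in DMSO total), difference (8 highest and 8 lowest between fractions and in total RNA), members per gene (6), list (2 each) and threshold (3 a side). A few items that these rules name are not reported here. Gene IDs were named by GENCODE 29 (12546 of 12755 matched).

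The labels give batch numbers shared across groups, which pairs the libraries. Correlations of same-numbered deviations were 0.03, 0.02 and 0.05 between JQ1-VHL nuclear and cytoplasmic and 0.17, 0.07 and 0.11 between total libraries. Alternatives were pseudocounts of 0.1 and 2, filters, scalings, edgeR 4.0.16, DESeq2 1.42.0, all 18 libraries, the batch as a block and each library left out.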

Additional observations from a re-analysis of the deposited data

How the results depend on the processing

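On the deposited ERCC scale 878 intervals were higher and 8 lower in JQ1-VHL nuclear than cytoplasmic RNA. In total RNA 3 were then higher and 144 lower. The difference between fractions turned negative on that scale for TMEM134 2 (-2.52), EGR1 1 (-0.93), ANKRD30A 39 (-1.51), PRPF19 1 (-0.10), CHTOP 2 (-0.41), SPDEF 5 (-0.97), ZRANB2 2 (-0.70), SCAMP3 6 (-0.79) and SLC7A5 2 (-0.51). Against non-member intervals of its gene only, the share of THBS1 17 was higher by 1.98, and 31 intervals had a lower share.

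With a pseudocount of 0.1 the counts were 31 higher and 969 lower in total RNA, 28 lower in share between fractions, and 4 higher and 33 lower in share of total RNA. With 2 the share counts were 626, 126 and 336. A filter at 5 CPM gave 748 lower in total RNA and 60 that gained share. All 18 libraries in the fit gave 26 higher in total RNA, 54 that gained share and 339 that lost share. Median-of-ratios scaling gave 85 higher in total RNA, edgeR 162 and DESeq2 115. Leaving out 1 library gave 2525 to 2883 higher in the nucleus, 21 to 30 higher and 908 to 1599 lower in total RNA, 649 to 974 higher and 70 to 109 lower shares between fractions, and 0 to 10 gained and 5 to 114 lost shares in total RNA. A 4-fold or 16-fold threshold would choose 4475 or 1167 intervals, a level of 10 or 40 CPM 5939 or 1055, and the ERCC scale 463. The cause of these shifts was not tested.

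With the batch as a block, 2787 were higher in the nucleus, 56 were higher and 1828 lower in total RNA, and the share counts were 843, 122, 25 and 185. Of 173 called values of named intervals, 25 lost the call and 47 moved over 1.5-fold without some 1 library, and 0 changed sign. Changes of share in total RNA were not among these values. The 1584517 reads of JQ1-VHL nuclear replicate 3 limit low levels there, and the calls in share of total RNA rest on single libraries.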
